A study of Mus musculus with 104 samples.

Results

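The genes of the cytosolic ribosomal proteins were described in mouse embryos that lack Tet1 and Tet2 or that lack Kmt2b. Members were the rows of both deposited expression tables whose symbol names a protein of the cytosolic large or small ribosomal subunit, the stalk proteins, Rpsa and the paralogs included. There were 84 of them among the 22583 rows used of the Tet1/2 table, 51 of the large and 33 of the small subunit. RefSeq lists 83 as protein coding and 1, Rps4y2 (RefSeq symbol Rps4l), as a transcribed pseudogene. Levels are the deposited FPKM, fragments per kilobase of transcript scaled to the sequenced fragments. Their sorted values are nearly the same in most columns, as described below. In each of the tables, 83 members reached 1 FPKM in 2 or more columns, and Rpl3l, a muscle paralog of Rpl3, did not, with at most 0.843 FPKM in the Tet1/2 table.

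RNA libraries were made with Smart-seq2, a full-length protocol for small samples, from dissected tissue of embryos. The Tet1/2 table has 1 column per library for 2 heads of genotype Tet1-/-;Tet2-/- (called DKO) at embryonic day (E) 8.5, 2 WT heads at E8.5, 2 DKO epiblasts at E6.5 and 3 WT epiblasts at E6.5. The Kmt2b table has 1 merged column each for 3 Kmt2b-/- (KO) and 3 WT epiblasts at E6.5, 2 KO and 3 WT heads at E8.5, and 3 WT heads at E9.5, besides the column of a single E9.5 KO library. The only WT epiblast RNA samples listed are titled as WT of the Kmt2b set. Both tables were therefore taken to hold the same 3 WT epiblasts. The series design names DBA2 males and C57BL/6N females for its crosses, and the labels give no other background for the mutants. Tet1 and Tet2 encode enzymes that oxidize 5-methylcytosine, and Kmt2b encodes a histone H3 lysine 4 methyltransferase. The labels do not say whether replicates are separate embryos or litters. The p-values below therefore describe the spread among the libraries, which may be technical.

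A ribosome holds 1 copy of most of these proteins, and their messages are among the most abundant in a growing cell. Mammalian ribosomal protein messages begin with a run of pyrimidines right at the transcription start, the 5′ terminal oligopyrimidine (TOP) motif, through which mTOR signalling controls their translation. Their transcripts are short, and many have processed pseudogenes, whose near-identical sequence makes it uncertain to which copy a read belongs. Mouse epiblast cells at these stages divide fast and carry a high demand for new ribosomes.

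The sequences around the annotated start were searched for short runs of letters, which only part of the members held. Of the 84 members, 63 had an entry among the RefSeq promoter sequences (GRCm38.p6). The 6 windows below run from 20 bases before the start to 10 after it, on the gene's strand, and belong to genes described in the results, whether or not they hold the letters searched. Capitals mark the letters CTTTC or CTTCC where a script found them.
Rplp2: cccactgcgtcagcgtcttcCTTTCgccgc
Rps18: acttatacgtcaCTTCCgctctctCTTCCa
Rps3a1: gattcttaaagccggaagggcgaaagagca
Rps25: tcctttttttccgacatcttagcgaggctg
Rpsa: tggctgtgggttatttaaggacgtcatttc
Rps28: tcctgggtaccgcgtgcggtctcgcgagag
They lie at chr7:141447631-141447660 (plus strand, Rplp2), chr17:33955656-33955685 (minus strand, Rps18), chr3:86142659-86142688 (minus strand, Rps3a1), chr9:44407694-44407723 (plus strand, Rps25), chr9:120127746-120127775 (plus strand, Rpsa) and chr17:33824553-33824582 (minus strand, Rps28).
From 20 bases before to 30 after the start, CTTTC on the gene's strand was in 22 of the 63 members (34.9%) and in 7.66% of all 27025 genes of that table. On the opposite strand it was in 11.1% of members and 7.30% of all genes. CTTCC on the gene's strand was in 31.7% of members and 12.1% of all genes. The letters CCGGAAG, the core that ETS family factors bind, were on either strand of the whole 300-base promoter in 41.3% of members and 9.93% of all genes, and their reverse complement holds CTTCC. In the 50 bases before the start, the letters TATAAA were on either strand in 1.59% of members and 4.17% of all genes. A match describes letters only, and no match says only that they are not in this window.

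Kmt2b, listed under its older symbol Wbp7, had 0.0349 to 0.308 FPKM in the 3 KO columns and 0.600 to 1.20 FPKM in the 3 WT columns of its table. Tet1 had 1.28 and 1.29 FPKM in DKO heads against 2.55 and 3.33 in WT heads, and 3.82 and 2.92 FPKM in DKO epiblasts against 4.77, 6.29 and 5.02 in WT epiblasts. Tet2 was low throughout, with 0.251 and 0.383 FPKM in DKO heads against 0.430 and 0.488 in WT heads. In epiblasts its levels overlapped, at 0.180 and 0.266 FPKM in DKO and 0.254, 0.302 and 0.498 in WT. The exons removed in the mutants are not annotated here, and remaining exons still give reads, which weakens this check of the labels. The summed level of 7 epiblast markers was 123 to 174 FPKM in the 4 head libraries and 1562 to 2627 FPKM in the 5 epiblast libraries, and that of 8 head neural markers 71.2 to 101 FPKM in heads and 4.50 to 10.1 FPKM in epiblasts. In the labels, the 3 WT epiblasts are listed under an earlier table name and the other 6 libraries of the Tet1/2 table under a later one. Comparisons with WT epiblasts therefore cross that division, and genotype or stage cannot be told apart from it there. In the Kmt2b set the KO heads at E8.5 carry the earlier name, as does 1 of the 3 WT heads merged with 2 of the later name.

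Ribosomal protein genes stood near the top of every column. They made up 7.33% to 9.58% of all FPKM in the 9 libraries of the Tet1/2 table and 8.61% to 11.8% in the 6 columns of the Kmt2b table, and 18 to 24 of the 100 highest genes of a column were members. Rpl41, whose protein is one of the smallest known, was among the 3 highest genes of each of the 15 columns, with levels of 3451 to 5158 FPKM in the Tet1/2 table. The 9 columns of that table share nearly the same sorted values, as do the E6.5 and E8.5 columns of the Kmt2b table. In these columns a level of at least 1 FPKM therefore stands for a rank within the table. The E9.5 columns do not share these sorted values. The plot of members by library shows how wide the range was below Rpl41.

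**Figure D1:**
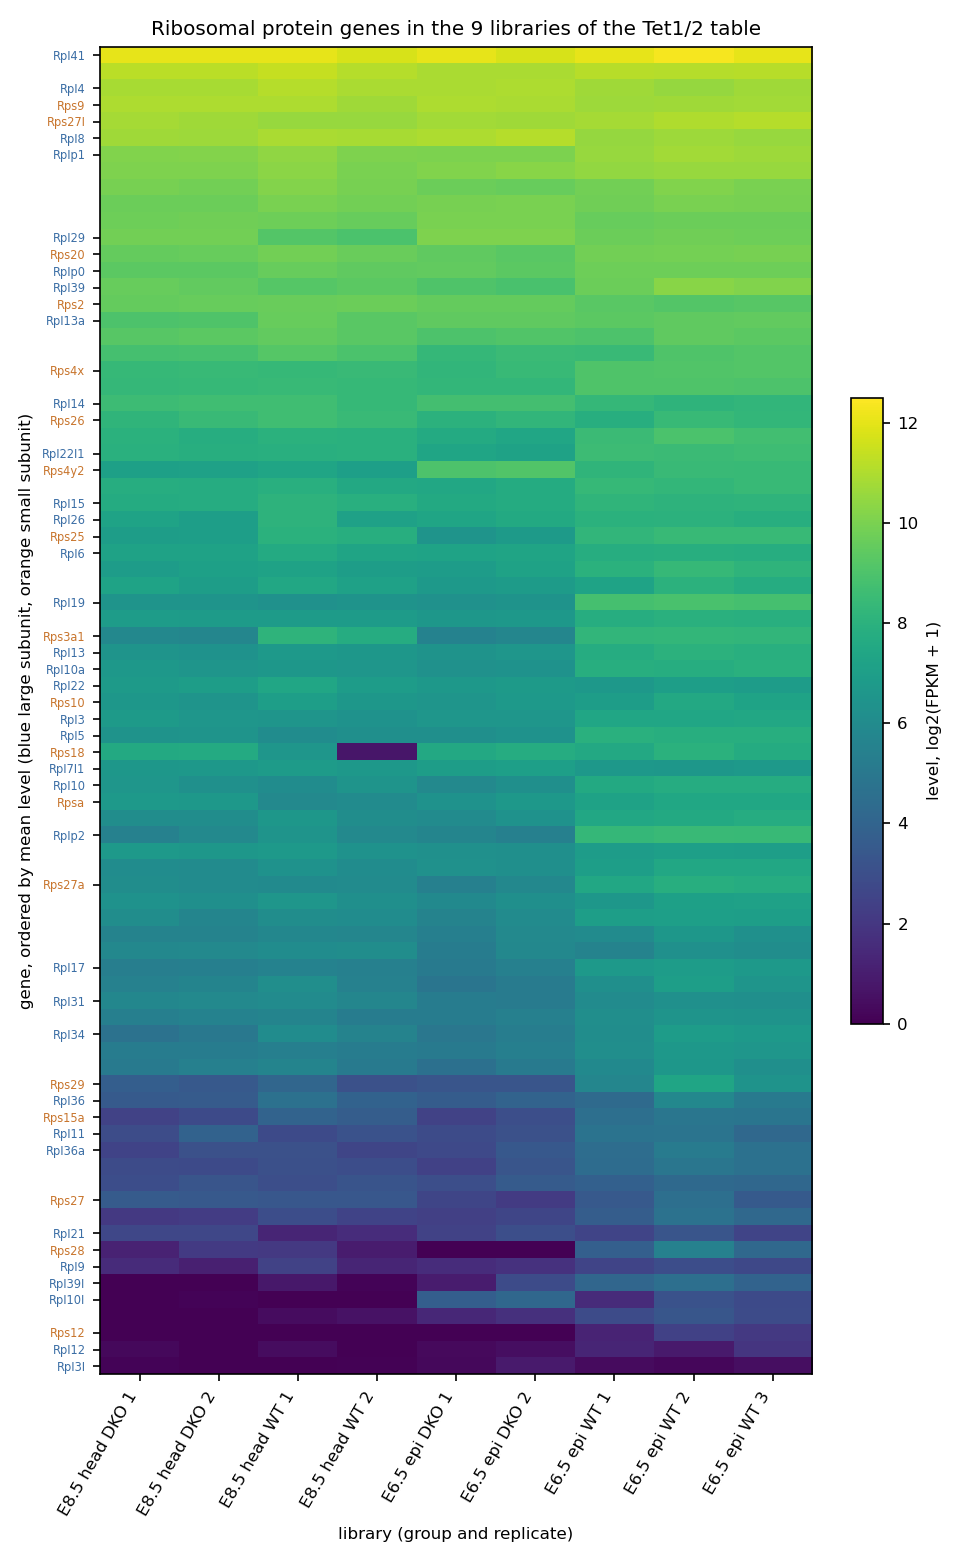
Level of 80 of the 84 ribosomal protein genes as log2(FPKM + 1) (colour) in each library of the Tet1/2 table (x axis), with genes on the y axis ordered by mean level and those the text describes named. Most genes keep their place across libraries, and the 3 WT epiblasts on the right stand apart as brighter through the middle of the plot, while Rps18 is near 0 in WT head 2.

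At the low end stood members that should be in every ribosome. Rpl12, which sits at the base of the stalk, had 0.194 and 0 FPKM in DKO heads and 1.42, 0.872 and 2.83 FPKM in WT epiblasts. Rps12 is listed at 0 in the 6 head and DKO epiblast libraries and had 1.37, 4.36 and 3.28 FPKM in WT epiblasts; RefSeq names 23 pseudogenes for it. Rpl9, with 9 named pseudogenes, had at most 6.71 FPKM and Rpl21, with 15, at most 8.83 FPKM in the libraries of that table. In the WT epiblasts the level of the 84 members had a Spearman correlation of −0.28 with the number of named pseudogenes and 0.02 with the span of the gene, given as a description of members that share libraries. These levels are those of the authors' counting and may not be those of the messages.

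Replicates agreed closely for most members, in columns that share nearly the same sorted values. The median over members of the SD of log2(FPKM + 1) was 0.05 in DKO heads, 0.15 in WT heads, 0.12 in DKO epiblasts (n = 2 each) and 0.14 in WT epiblasts (n = 3). The largest SD in WT heads was 4.11, that of Rps18, which had 94.4 and 0.704 FPKM there. The largest in WT epiblasts was 0.88, that of Rps28, with 13.0, 44.5 and 17.7 FPKM.

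Comparing DKO with WT heads at E8.5 asked whether loss of Tet1 and Tet2 moved the genes in the early head. Few did, and those that did included strong single differences of small subunit genes. By limma with Benjamini-Hochberg adjustment over 11260 genes, 3 members rose and 3 fell, 6 of 83, where 1.42% of all genes were called (0.675% higher and 0.746% lower). The count was 2 without DKO head 1 and 3 without DKO head 2. The median log2 difference of the members was −0.09, against −0.02 over all genes. No share of all genes was computed for an unadjusted p under 0.05. Of the 50 large subunit members tested, 1 rose and 0 fell by limma (median −0.11), and of the 33 small subunit members 2 rose and 3 fell (median −0.02). At an unadjusted limma p under 0.05, 4 large subunit members were higher and 8 lower, and 3 small subunit members were higher and 3 lower.

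Rps3a1 encodes a small subunit protein near the exit of the messenger channel. It had 55.2 and 52.7 FPKM in DKO heads against 278 and 216 FPKM in WT heads. The DKO epiblasts, at 45.9 and 52.2 FPKM, were also far below the WT epiblasts, at 301, 308 and 298 FPKM. All 4 DKO libraries lay below all 5 WT libraries. The log2 difference was −2.16 ± 0.12 in heads (SE, limma adjusted p = 0.000153) and −2.60 ± 0.11 in epiblasts (adjusted p = 3.08e-05). RefSeq holds the processed copies Rps3a2 and Rps3a3, so part of its reads may have been placed elsewhere.

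Rps25, needed in yeast and human cells for initiation at some internal ribosome entry sites, followed the same order. It had 125 and 126 FPKM in DKO heads against 253 and 227 FPKM in WT heads, and 87.9 and 113 FPKM in DKO epiblasts against 294, 347 and 347 FPKM in WT epiblasts. The groups did not overlap at either stage. The log2 difference was −0.93 ± 0.13 in heads (adjusted p = 0.0164) and −1.71 ± 0.12 in epiblasts (adjusted p = 0.000154). In heads the call was lost without any 1 of the 4 head libraries, at log2 differences of −1.01 to −0.85 and adjusted p of 0.0589 to 0.135.

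Rps15a was the third member that fell. It had 4.58 and 5.97 FPKM in DKO heads against 14.6 and 11.7 FPKM in WT heads (log2 −1.17 ± 0.22, adjusted p = 0.0463), and 4.57 and 6.95 FPKM in DKO epiblasts against 22.4, 28.8 and 28.1 FPKM in WT epiblasts. Its call in heads was lost under 7 of the 9 fits that left out a library, with adjusted p of 0.0641 to 0.347.

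Rpl29, a large subunit protein whose loss in mice reduces body size, went the other way. It had 926 and 917 FPKM in DKO heads against 571 and 497 FPKM in WT heads, a log2 difference of 0.79 ± 0.08 (adjusted p = 0.00239). In epiblasts it had 1098 and 1083 FPKM in DKO against 816, 889 and 859 FPKM in WT, a log2 difference of 0.35 ± 0.07 (adjusted p = 0.00711). It was the one member with all 4 DKO libraries above all 5 WT libraries.

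Rpsa, the small subunit protein also known as the laminin receptor precursor, had 106 and 102 FPKM in DKO heads against 58.4 and 63.9 FPKM in WT heads (log2 0.76 ± 0.13, adjusted p = 0.0319). In epiblasts it lay lower in DKO libraries, at 81.1 and 101 FPKM in DKO against 146, 171 and 171 in WT (−0.83 ± 0.12, adjusted p = 0.00150). Neither pair of groups overlapped. The call in heads was lost without any 1 of the 4 head libraries or of 2 of the WT epiblasts, with adjusted p of 0.0546 to 0.235.

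The largest log2 difference in heads, 3.93 ± 1.42 for Rps18, did not pass the test (adjusted p = 0.221). The gene had 191 and 197 FPKM in DKO heads against 94.4 and 0.704 FPKM in WT heads. WT head 2 decides the value, which was 1.03 without it and 6.84 (adjusted p = 1.36e-05) without WT head 1. Epiblasts overlapped, with 185 and 213 FPKM in DKO and 185, 251 and 208 FPKM in WT. Rpl21, with 5.25 and 5.33 FPKM in DKO heads against 1.47 and 1.97 in WT heads (1.22 ± 0.29, adjusted p = 0.0881), and Rpl34, with 25.1 and 31.4 FPKM in DKO heads against 67.6 and 47.1 in WT heads (−0.98 ± 0.28, adjusted p = 0.143), were the next in size that did not pass. At the same difference Rpl21 passed with only the heads in the fit (adjusted p = 0.0321) and without either DKO epiblast (adjusted p of 0.0446 and 0.0451).

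**Figure D2:**
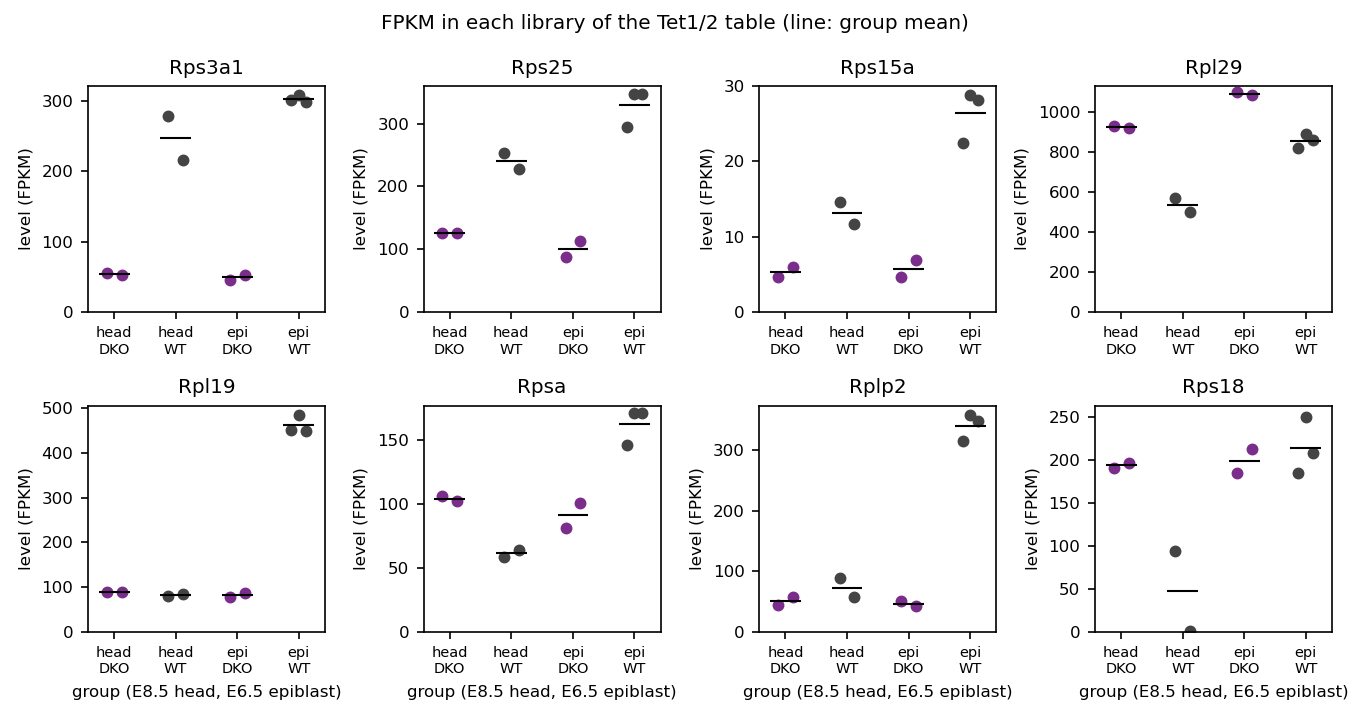
FPKM of 8 ribosomal protein genes (1 panel each, axes from 0) in the 9 libraries of the Tet1/2 table, with 1 point per library, a line at the group mean and DKO in purple. Rps3a1, Rps25 and Rps15a are lower and Rpl29 higher in DKO at both stages, Rplp2 is high in WT epiblasts at 315 to 358 FPKM, and Rps18 is low in WT head 2 at 0.704 FPKM.

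Counted over both stages, 10 members had all 4 DKO libraries on 1 side of all 5 WT libraries, where 3.05% of all genes did. These were Rpl29 above, and Rpl6, Rpl13, Rpl15, Rpl17, Rpl34, Rps15a, Rps20, Rps25 and Rps3a1 below. Of these, Rpl29, Rps15a, Rps25 and Rps3a1 were called in the same direction in both DKO comparisons. Rpl15, one of those not called in heads, had 206 and 215 FPKM in DKO heads against 266 and 239 in WT heads. The 5 WT libraries include the 3 WT epiblasts, which are listed under the earlier table name. Against these, genotype cannot be told apart from that division. Only the heads compare DKO with WT libraries of the same table name. Marker levels of other cells also differed among the heads. The summed level of the 6 listed embryonic blood markers was 377 and 4.93 FPKM in DKO heads against 0.345 and 0.215 in WT heads, and that of 7 heart muscle markers 8.13 and 5.38 FPKM in DKO heads against 36.6 and 212 in WT heads. At least 1 FPKM was reached by 3 and 2 of the 6 blood markers in DKO heads and by 0 and 0 in WT heads, and by 3 and 3 of the 7 heart markers in DKO heads and by 7 and 7 in WT heads. Their part in these results was not tested. In bulk samples, fewer cells of a type and less RNA per cell cannot be told apart.

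Few other genes of ribosome production were called between DKO and WT heads, where 0.675% of all genes were called higher and 0.746% lower. Counts at an unadjusted p under 0.05 are given without a share of all genes. Of 19 genes of TOP messages and translation elongation, 1 fell, Eef2, the elongation factor that moves the ribosome along (log2 −0.65 ± 0.12, adjusted p = 0.0471). Of 24 large subunit assembly factors 1 fell, Eif6, which keeps unfinished large subunits from joining (−0.39 ± 0.07, adjusted p = 0.0435), and of 4 nucleolar genes 1 fell, Ncl (nucleolin, −0.40 ± 0.07, adjusted p = 0.0374). None of 30 small subunit assembly factors, 13 RNA polymerase I genes or 8 snoRNP genes was called by limma. At an unadjusted p under 0.05, 7 of the 30 small subunit factors (median −0.18), 1 polymerase gene and 2 snoRNP genes were lower and 1 polymerase gene was higher. Of 76 mitochondrial ribosomal protein genes, 1 rose and 1 fell.

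In the E6.5 epiblast, the ribosomal protein genes were mostly lower in DKO than in WT libraries. The WT epiblasts are listed under the earlier table name and titled Kmt2b WT, so genotype cannot be told apart from that division here. Of the 83 members 10 rose and 59 fell, where 35.3% of all genes were called, 20.1% higher and 15.2% lower. The median log2 difference was −0.86, against 0.05 over all genes. Large subunit members had a median of −1.01 (37 of 50 fell, 6 rose) and small subunit members −0.75 (22 of 33 fell, 4 rose). Rps28 and Rps12 are among the 59 and are listed at 0 in both DKO epiblasts.

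The stalk genes differed widely in how far they fell. Rplp2, which encodes an acidic protein of the stalk that recruits elongation factors, had 50.7 and 42.2 FPKM in DKO epiblasts against 315, 358 and 348 FPKM in WT epiblasts (log2 −2.85 ± 0.19, adjusted p = 0.000122). Rplp1, its partner in the stalk dimer, had 1047 FPKM in both DKO libraries against 1516, 1733 and 1601 in WT (−0.62 ± 0.10, adjusted p = 0.00239). Rplp0, the stalk base that holds these dimers, differed by −0.29 ± 0.07 (adjusted p = 0.0141). DKO and WT epiblasts did not overlap for any of the 3.

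Rpl5 and Rpl11 form a particle with 5S ribosomal RNA that can bind Mdm2 and stabilise p53. Rpl5 had 74.4 and 81.5 FPKM in DKO epiblasts against 247, 224 and 229 FPKM in WT epiblasts (log2 −1.57 ± 0.09, adjusted p = 7.1e-05). Rpl11 had 6.20 and 7.59 FPKM in DKO against 26.0, 26.8 and 17.4 in WT (−1.61 ± 0.30, adjusted p = 0.00510). Rpl19, a large subunit protein that in yeast forms a bridge to the small subunit, had 78.4 and 85.6 FPKM in DKO epiblasts against 451, 485 and 449 FPKM in WT epiblasts (−2.48 ± 0.07, adjusted p = 3.07e-06). Rps29, a small zinc-binding protein, had 8.91 and 8.92 FPKM in DKO against 52.2, 162 and 84.8 in WT (−3.19 ± 0.44, adjusted p = 0.00140). Rps28 is listed at 0 in both DKO epiblasts against 13.0, 44.5 and 17.7 FPKM in WT. The size of its log2 difference, −4.51, therefore depends on the pseudocount (−7.77 with 0.1 and −2.45 with 5).

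Fewer members rose. Rpl8, which lies close to the peptidyl transferase centre, had 2015 and 2188 FPKM in DKO epiblasts against 1464, 1601 and 1516 FPKM in WT epiblasts (log2 0.46 ± 0.06, adjusted p = 0.00130). Rpl14 had 429 FPKM in both DKO libraries against 318, 282 and 303 in WT (0.51 ± 0.09, adjusted p = 0.00388). Rps4y2, the transcribed copy of Rps4x, had 511 and 544 FPKM in DKO against 286, 359 and 339.6 in WT (0.69 ± 0.12, adjusted p = 0.00382). Rpl10l, a copy of Rpl10 used in mouse testis, had 12.2 and 17.0 FPKM in DKO against 1.90, 7.74 and 6.12 in WT (1.45 ± 0.41, adjusted p = 0.0270), a call lost without DKO epiblast 2 (1.23, adjusted p = 0.122).

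The X-linked members fell together. Rpl10 had 58.7 and 74.0 FPKM in DKO epiblasts against 194, 211 and 210.2 in WT (−1.62 ± 0.16, adjusted p = 0.000384), Rpl36a differed by −1.69 ± 0.31, Rpl39 by −1.05 ± 0.15 and Rps4x by −0.79 ± 0.08, with adjusted p of 0.00468, 0.00167 and 0.000428. Their differences lay within the range of the autosomal members. Among the paralog pairs, Rpl22l1 fell by 1.30 ± 0.07 on the log2 scale (adjusted p = 7.1e-05) beside −0.12 ± 0.15 for Rpl22 (adjusted p = 0.578). Rps27 had a difference of −1.49 ± 0.31 (adjusted p = 0.00815) and Rps27l one of −0.23 ± 0.08 (adjusted p = 0.0564). Whether the members of a pair differ from each other was not tested.

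**Figure D3:**
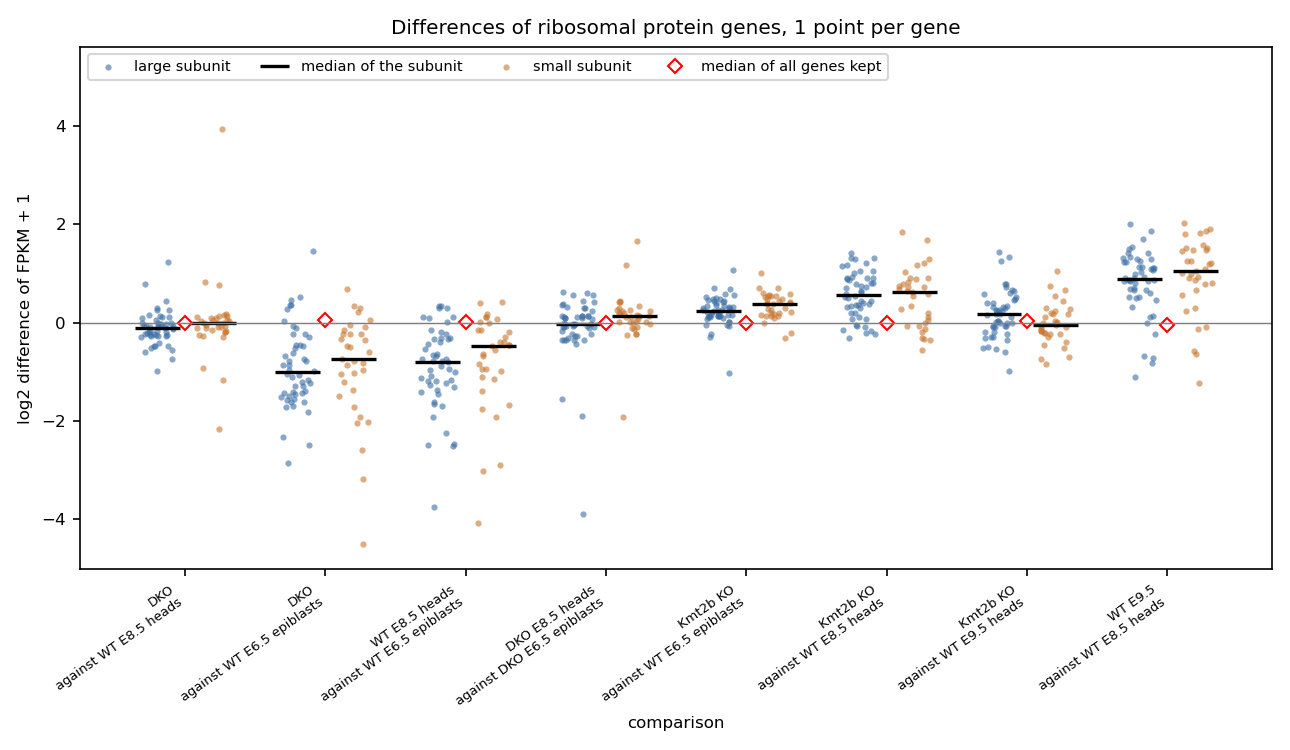
Log2 difference of FPKM + 1 of each ribosomal protein gene kept (1 point per gene, y axis) in 8 comparisons (x axis), large subunit in blue and small subunit in orange, with black lines at the subunit medians and red diamonds at the median of all genes. The medians of members lie below those of all genes in the 2 comparisons with WT epiblasts of the Tet1/2 table, near 0 between DKO and WT heads, and above 0 in the Kmt2b KO columns at E6.5 and E8.5.

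The other gene groups of ribosome production did not share that direction in the epiblast. Of all genes, 20.1% were called higher and 15.2% lower there. No such share was computed for an unadjusted p under 0.05. Of 30 small subunit assembly factors 15 rose and 0 fell by limma, 20 and 0 at an unadjusted p under 0.05 (median log2 difference 0.32), and of 24 large subunit assembly factors 13 rose and 4 fell (median 0.39). Bms1, a GTPase of early small subunit assembly, rose by 0.92 ± 0.11 (adjusted p = 0.000845), and Rrs1, a factor of large subunit assembly, by 1.08 ± 0.11 (adjusted p = 0.000496). Of the 8 snoRNP genes 3 rose and 1 fell, with Gar1 at 1.57 ± 0.25 (adjusted p = 0.00275) and Fbl, the fibrillarin methyltransferase, at 1.03 ± 0.20 (adjusted p = 0.00536). The nucleolar genes Nolc1 (1.10 ± 0.09), Ddx21 (0.79 ± 0.07) and Ncl (0.53 ± 0.07) rose, and Npm1 fell by 0.50 ± 0.06 (adjusted p = 0.000804).

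The TOP and elongation genes were divided in the epiblast, with 6 of 19 higher and 7 lower in DKO. Among those that fell were Fau, whose product is processed to the small subunit protein Rps30 (−1.37 ± 0.13, adjusted p = 0.000395), Tpt1 (−1.32 ± 0.08, adjusted p = 0.000111), and Btf3 and Naca, partners in the nascent chain complex (−1.12 ± 0.07 and −1.06 ± 0.17). Eef2 rose by 1.22 ± 0.11 (adjusted p = 0.000358). Of 76 mitochondrial ribosomal protein genes 7 rose and 15 fell, with a median of −0.05.

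The members were also mostly lower in WT heads than in WT epiblasts. Between WT heads and WT epiblasts 4 members rose and 53 fell, where 36.9% of all genes were called, 19.8% higher and 17.1% lower, and the median log2 difference was −0.74, against 0.01 over all genes. Large subunit members had a median of −0.79 and small subunit members −0.47. Rplp2 had 88.1 and 57.8 FPKM in WT heads against 315, 358 and 348 in WT epiblasts (−2.24 ± 0.19, adjusted p = 8.11e-05), and Rpl5 differed by −1.70 ± 0.09 (adjusted p = 8.1e-06). Rps28 had 3.16 and 0.905 FPKM in WT heads (−3.02 ± 0.53, adjusted p = 0.00278) and Rps29 16.2 and 7.60 FPKM (−2.90 ± 0.44, adjusted p = 0.00139). The paralog Rpl39l had 0.775 and 0.0982 FPKM in WT heads against 16.4, 22.8 and 14.9 in WT epiblasts (−3.75 ± 0.50, adjusted p = 0.000735), and Rpl10l is listed at 0 in both WT heads.

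The members that rose in WT heads were Rps2 (0.42 ± 0.06, adjusted p = 0.00123), Rpl8 (0.33 ± 0.06), Rpl4, which lines the exit tunnel (0.33 ± 0.08), and Rpl14 (0.29 ± 0.09). Rps18 was called lower (−4.07 ± 1.30, adjusted p = 0.0381), a value of −1.16 without WT head 2 and −6.97 without WT head 1, and the call was lost without any 1 of the WT epiblasts or DKO heads. The calls of Rpl4 and Rpl14 were lost without WT head 1, at 0.23 (adjusted p = 0.120) and 0.16 (adjusted p = 0.265), and that of Rpl14 also without 4 other libraries, each in turn.

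Set against the mean of the WT epiblasts, the median of the members was −0.70 and −0.73 for DKO heads, −0.96 and −0.78 for DKO epiblasts and −0.58 and −0.80 for WT heads. Each WT epiblast against the other 2 gave −0.21, 0.16 and 0.04. All 6 libraries under the later table name lay below all 3 WT epiblasts. None of the 6 is a WT epiblast, so table name cannot be told apart here from genotype and stage. The members' share of all FPKM was 7.33% to 8.22% in these 6 and 8.47% to 9.58% in the WT epiblasts.

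Within the later libraries, DKO heads and DKO epiblasts held the genes at similar levels. Of the 83 members 10 rose and 10 fell in DKO heads against DKO epiblasts, where 49.8% of all genes were called, 23.7% higher and 26.1% lower. The median log2 difference was 0.08, against 0.00 over all genes. The count of 20 was 8 without either DKO head, 13 without DKO epiblast 1 and 10 without DKO epiblast 2. Rps27 had 11.1 and 10.2 FPKM in DKO heads against 5.09 and 3.49 in DKO epiblasts (1.16 ± 0.34, adjusted p = 0.0220). Rpl31 rose by 0.63 ± 0.13 (adjusted p = 0.00413), Rpl22l1 by 0.61 ± 0.08 (adjusted p = 0.000425) and Rpl39 by 0.56 ± 0.16 (adjusted p = 0.0220). The calls of Rps27 and Rpl39 were lost without DKO epiblast 2 or either DKO head, at 0.93 to 1.21 and 0.47 to 0.59.

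The largest falls were those of copies. Rpl10l had 0 and 0.0810 FPKM in DKO heads against 12.2 and 17.0 FPKM in DKO epiblasts (−3.89 ± 0.45, adjusted p = 0.000306). Rps4y2 had 135 and 142 FPKM in DKO heads against 511 and 544 in DKO epiblasts (−1.92 ± 0.13, adjusted p = 3.16e-05), while Rps4x had 329 and 344 FPKM in DKO heads and 298 and 339 in DKO epiblasts (adjusted p = 0.463). Rpl13a, whose protein also takes part in translational silencing in human monocytes, fell by 0.43 ± 0.09 (adjusted p = 0.00568), and Rpl8 by 0.35 ± 0.07 (adjusted p = 0.00347).

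The assembly genes fell in the same DKO heads, where 26.1% of all genes were called lower and 23.7% higher. No such share was computed for an unadjusted p under 0.05. Of 30 small subunit assembly factors 24 fell and 0 rose by limma, 27 and 0 at an unadjusted p under 0.05 (median −0.56), of 24 large subunit assembly factors 16 fell and 1 rose (median −0.55), and of 13 RNA polymerase I genes 7 fell and 1 rose (median −0.52). Nol6 and Rrp12, both of small subunit assembly, fell by 1.69 ± 0.17 (adjusted p = 0.000161) and by 1.62 ± 0.17 (adjusted p = 0.000187). Fbl had a difference of −2.06 ± 0.21 (adjusted p = 0.000184). Polr1a, the largest subunit of RNA polymerase I, fell by 1.18 ± 0.14 (adjusted p = 0.000381). Eef2 (−1.47 ± 0.12) and Pabpc1, the poly(A)-binding protein (−0.92 ± 0.22), were among 6 of 19 TOP and elongation genes that fell, and 1 of the 19 rose.

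The DKO difference itself was compared between stages in the same fit. It was higher in heads than in epiblasts for 43 members and lower for 6, where 26.5% of all genes were called, 10.9% higher and 15.6% lower, with a median of 0.79 for members and −0.06 for all genes. This interaction contains the WT epiblasts and with them the division by table name. Its count of 49 members was 29 without DKO head 1. Rpl19 had the difference −2.48 in epiblasts and 88.2 and 88.7 FPKM in DKO heads against 80.4 and 84.3 in WT heads, which gave an interaction of 2.58 ± 0.11 (adjusted p = 5.91e-05). Rps27a, made as a fusion with ubiquitin, had 69.2 and 63.4 FPKM in DKO heads against 62.1 and 65.1 FPKM in WT heads. In epiblasts it had 42.8 and 56.5 FPKM in DKO against 181, 225 and 215 in WT, for an interaction of 2.10 ± 0.20 (adjusted p = 0.00107). For Rps3a1, low in DKO at both stages, the interaction was 0.44 ± 0.16 (adjusted p = 0.0792).

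In the Kmt2b table, the KO column at E6.5 held most members slightly higher. With 1 merged column per group these are differences without error, p-value or replicate check. Of 83 members 74 lay above 0, where 47.1% of all genes did, with a median log2 difference of 0.27 for members and −0.02 for all genes. Large subunit members had a median of 0.24 and small subunit members of 0.38. Their summed level was 25277 FPKM in KO against 21235 in WT for the large subunit, and 23505 in KO against 20930 in WT for the small.

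Single members differed little at E6.5, with Rpl36 at least 2-fold higher and Rpl10l at least 2-fold lower, where 1.68% of all genes passed that size (1.08% higher and 0.605% lower). Rpl36 had 79.5 FPKM in KO and 37.4 FPKM in WT (1.07), with an SD of 0.75 between the 3 WT libraries on the same scale. Rps10 had 311 FPKM in KO and 155 in WT (WT SD 0.28) and Rplp2 556 in KO and 343 in WT (0.70, WT SD 0.10). Rpl10l had 2.24 FPKM in KO and 5.59 in WT (−1.03, WT SD 0.85). Rps27l, a paralog of Rps27 that p53 induces in human cells, differed by −0.31 and Rpl26 by −0.29.

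At E8.5 the KO heads held the members higher by a wider margin. Both KO heads are listed under the earlier table name, and 2 of the 3 merged WT heads under the later one. Genotype cannot be told apart from that division in these columns. The median log2 difference was 0.58, against −0.01 over all genes, and 67 of 83 members lay above 0, where 49.2% of all genes did. At least 2-fold higher were 16 members and 0 were lower, where 4.71% of all genes passed that size, 2.21% higher and 2.49% lower. The large and small subunit medians were 0.56 and 0.63. Rps18 had 229.5 FPKM in KO and 63.2 in WT (1.84), Rpsa 213 in KO and 66.2 in WT (1.67), Rplp2 457 in KO and 170.0 in WT (1.42) and Rpl10a 314 in KO and 126 in WT (1.31). The WT value of Rps18 merges 3 libraries, and in single WT heads of the other table it ranged over 94.4 and 0.704 FPKM.

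Some of the highest members did not follow at E8.5. Rpl41 had 3467 FPKM in KO and 4290 in WT (−0.31), and Rps9, Rps26 and Rps27l differed by −0.31, −0.33 and −0.36. The summed level was 19314 FPKM in KO against 19197 in WT for the small subunit and 21583 in KO against 19678 in WT for the large. The share of all FPKM was 9.14% in KO and 8.61% in WT. Against the WT heads of the Tet1/2 table in place of the merged WT column, 30 members were at least 2-fold higher in KO. The merged WT column itself lay above those WT heads by a median of 0.14.

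Of the related gene lists at E8.5, the TOP and elongation genes had a median of 0.09 with 11 of 19 above 0, among them Naca (0.92), Tpt1 (0.90) and Fau (0.75). The assembly factors had medians of −0.16 (large subunit) and −0.17 (small subunit), and mitochondrial ribosomal protein genes −0.18, with 21 of 76 above 0. Marker levels differed between the same columns, with head neural markers at 28.5 FPKM in KO and 76.8 in WT, embryonic blood markers at 5.04 in KO and 98.2 in WT, and epiblast markers at 194 in KO and 151 in WT. Their part in the difference was not tested.

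**Figure D4:**
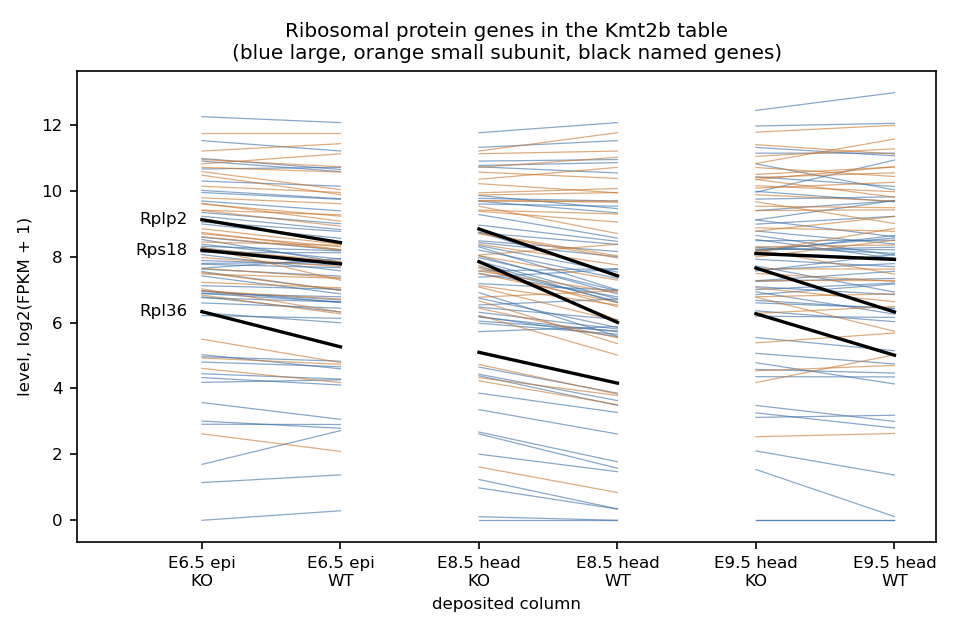
Level of each ribosomal protein gene as log2(FPKM + 1) (y axis) in the 6 columns of the Kmt2b table (x axis), each line joining the KO and WT columns of 1 stage. Most lines slope down toward WT at E6.5 and E8.5 but not at E9.5. Rplp2, Rpl36 and Rps18 (black) are higher in KO at all 3 stages, as are other members.

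At E9.5 the members did not lie to one side. The median difference between the single KO library and the merged WT column was 0.03, as over all genes, and 44 of 83 members lay above 0, where 52.6% of all genes did. At least 2-fold higher were 4 members and 0 were lower, where 8.26% of all genes passed that size, 4.69% higher and 3.57% lower. These were Rplp2 (200.5 FPKM in KO and 79.0 in WT, 1.33), Rpl36 (76.1 in KO and 31.2 in WT, 1.26), Rps4y2 (108 in KO and 52.2 in WT, 1.04) and the near-silent Rpl39l (1.91 in KO and 0.0820 in WT). Lowest were Rpl39 (991 FPKM in KO and 1950 in WT, −0.98) and Rps27 (−0.84). The large subunit median was 0.17 and the small −0.05. In this KO library, whose column name gives another tissue code than the title, heart muscle markers summed to 2706 FPKM against 23.2 in WT, and blood markers to 5863 FPKM against 15771 in WT.

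Rplp2 and Rpl36 were the members at least 2-fold higher in KO at 2 of the stages. Their log2 differences at E6.5, E8.5 and E9.5 were 0.70, 1.42 and 1.33 for Rplp2 and 1.07, 0.93 and 1.26 for Rpl36. Being higher in KO at all 3 stages was shared by other members, among them Rpl10a, Rpl6 and Rplp0, and was not counted. The assembly factors lay above 0 in the E9.5 KO library, 27 of 30 for the small subunit (median 0.55) and 21 of 24 for the large (0.46).

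In WT heads the members were higher at E9.5 than at E8.5, on columns that were not scaled together. The median log2 difference was 0.93, against −0.06 over all genes, with 39 members at least 2-fold higher and 2 lower, where 19.1% of all genes passed that size, 8.76% higher and 10.3% lower. Rps27a had 361 FPKM at E9.5 and 88.1 at E8.5 (2.02), Rpl10 398 at E9.5 and 98.9 at E8.5 (2.00) and Rps18 240.4 at E9.5 and 63.2 at E8.5 (1.91). Rps4y2 had 52.2 FPKM at E9.5 and 124 at E8.5 (−1.23), and Rplp2 79.0 at E9.5 and 170.0 at E8.5 (−1.10). The small subunit assembly factors lay the other way, with a median of −0.65 against −0.06 over all genes. The 6 listed blood markers summed to 15771 FPKM at E9.5 against 98.2 at E8.5, and the part of blood cells in the difference was not tested.

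Members with many named pseudogenes were compared with those that have few, since reads of near-identical copies can be placed differently from library to library. Only RefSeq symbols made of the gene's symbol plus -ps were counted, so copies under other names were missed. Rps3a1 thus counts as having 0, though RefSeq holds its copies Rps3a2 and Rps3a3. The 24 members with the most (5 to 24 named pseudogenes) had a median log2 difference of −0.96 between DKO and WT epiblasts, against −0.50 for the 37 tested members with 0 or 1. Between WT heads and WT epiblasts the medians were −0.96 with many and −0.39 with few, and between Kmt2b KO and WT heads at E8.5 0.88 with many and 0.28 with few. The medians were −0.10 with many and −0.11 with few for DKO against WT heads, 0.01 with many and 0.13 with few for DKO heads against DKO epiblasts, and 0.21 with many and 0.32 with few for Kmt2b KO against WT epiblasts. Over the 83 members the Spearman correlation with the number of pseudogenes was 0.40 for the E8.5 Kmt2b difference and −0.16 for the DKO epiblast difference. Some of these orders depended on how pseudogenes were counted.

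**Figure D5:**
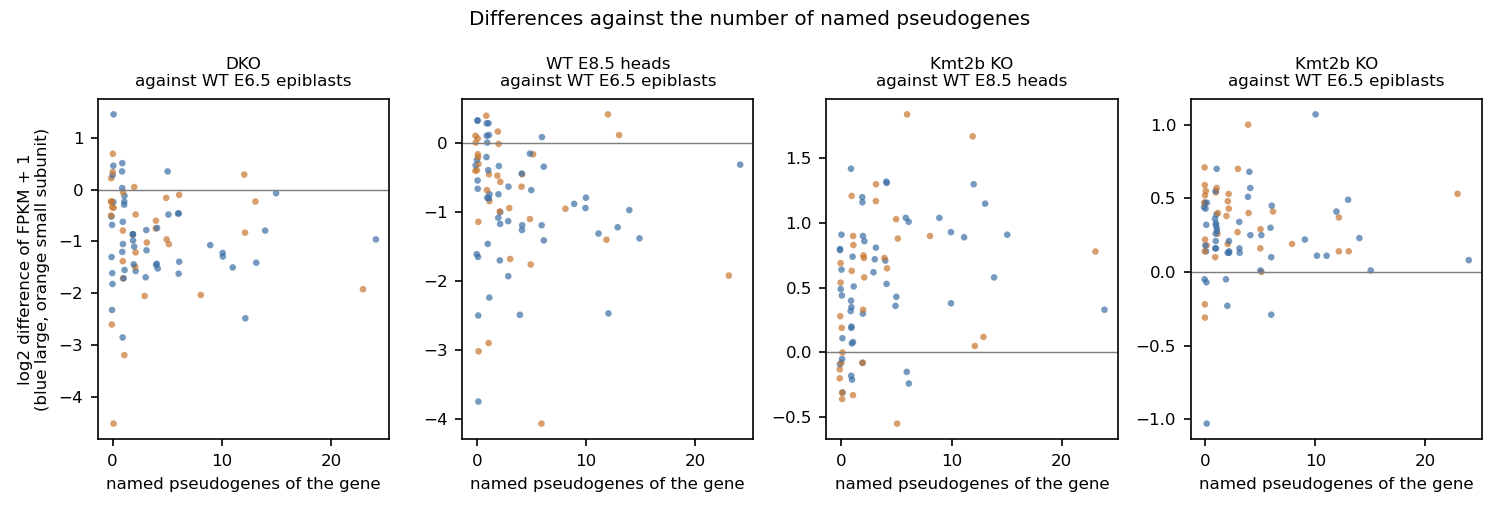
Log2 difference of FPKM + 1 of each ribosomal protein gene (y axis) against the number of pseudogenes RefSeq names for it (x axis) in 4 comparisons, large subunit in blue and small in orange. Members with 5 or more pseudogenes are mostly above 0 in Kmt2b KO heads at E8.5 and mostly below 0 in both comparisons with WT epiblasts of the Tet1/2 table.

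When only pseudogenes with a row of their own in the deposited table were counted, the order turned for Kmt2b KO against WT heads at E8.5, where the pseudogene-rich members then lay 0.27 below the others. They then lay 0.41 below the others for DKO against WT heads and 0.03 below for WT heads against WT epiblasts. Members were also divided by the span of the gene on the chromosome, introns included. The 28 members of the shortest spans (941 to 2650 bases) had a median of −1.25 between DKO and WT epiblasts and the 27 tested members of the longest (4143 to 11774 bases) −0.79. Between WT heads and WT epiblasts the medians were −1.07 for short and −0.54 for long spans, and between Kmt2b KO and WT heads at E8.5 they were 0.58 for short and 0.69 for long spans.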

How the data were processed

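The authors deposited RNA values as FPKM, and the submitters' processing notes name TopHat2 (version 2.0.11), Cufflinks (version 2.0.2) and the build mm9. Sorted values of the 9 columns of the Tet1/2 table differ by at most 0.208% from its first, and the 4 columns for E6.5 and E8.5 of the Kmt2b table by at most 0.130%, while its E9.5 columns differ by up to 72.3%. FPKM give no counts, so the depth is unknown. Another 2 columns belong to no listed sample and were not used. The Tet1/2 table's WT epiblasts were taken to be the listed ones, which are titled Kmt2b WT. Over genes, their mean had a Pearson r of 0.9992 with the merged WT epiblast column.

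R 4.3.3 and limma 3.58.1 gave two-sided moderated tests with a mean trend on log2(FPKM + 1), which understates changes of low genes, all in 1 fit of 4 groups, with Benjamini-Hochberg adjustment over 11260 genes at a threshold of 0.05. The script was tested on simulated data. In the Kmt2b table, 11069 genes were kept and differences of at least 2-fold counted. Date-like names (27 rows) and small RNA rows (10) were left out. Medians over members are descriptions with no test.

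Members, lists and rules were chosen with earlier results of these data known. Named by rule were, per comparison, the 5 largest differences in each direction with at least 5 FPKM (called ones first), members at least 2-fold different at 2 Kmt2b stages, paralogs, stalk, X-linked and 5S particle genes, the 3 highest, and up to 4 genes of a list. Members with all DKO libraries on 1 side were named after their values were seen. The planned split by protein length was replaced by gene span (RefSeq, GRCm38.p6). Further marker lists, of visceral endoderm and endothelium, summed to at most 15.8 and 10.1 FPKM. Some genes that these rules name are not reported here, though counts and medians include them.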

Additional observations from a re-analysis of the deposited data

Results flagged for a closer look

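The DKO difference differed between heads and epiblasts for 49 of 83 members by the interaction test in limma (adjusted p under 0.05). The largest such interactions were those of Rps28 (log2 4.67, adjusted p = 0.00517), which is listed at 0 in both DKO epiblasts so that the size depends on the pseudocount (8.04 with 0.1 and 2.51 with 5), Rps29 (3.20, adjusted p = 0.0103), Rpl19 (2.58, adjusted p = 5.91e-05), Rplp2 (2.37, adjusted p = 0.00154) and Rps27a (2.10, adjusted p = 0.00107). In the other direction were Rps4y2 (−0.78, adjusted p = 0.0156), Rpl8 (−0.68, adjusted p = 0.00253), Rpl7l1 (−0.48, adjusted p = 0.0288), Rpl13a (−0.44, adjusted p = 0.0358) and Rps2 (−0.40, adjusted p = 0.0164). The WT epiblasts are listed under another table name than the other 3 groups, and this and the biology cannot be told apart in these values. With 1 library left out, the calls of Rpl13a (8 of 9 libraries), Rpl7l1 (5), Rps4y2 (2) and Rps2 (2) were lost, with adjusted p of 0.0508 to 0.134.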

How the results depend on the processing

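Counts of called members ranged, with 1 library left out in turn, over 2 to 7 for DKO against WT heads, 59 to 71 for DKO against WT epiblasts, 47 to 61 for WT heads against WT epiblasts, 8 to 21 for DKO heads against DKO epiblasts and 29 to 49 for the interaction. For DKO against WT heads the count was 3 with the replicate number as a block and 3 without the WT epiblast columns. Deviations of same-numbered libraries had a correlation of 0.061 between the 2 head groups, 0.192 between DKO heads and DKO epiblasts and −0.00788 to 0.104 between the other groups. With 2 shared numbers a comparison and no shared source given in the labels, the numbers were not taken to pair the samples. For DKO heads against DKO epiblasts the count was 13 with no filter on low values and 12 with no mean trend. With a pseudocount of 5, 0 members were at least 2-fold different between Kmt2b KO and WT at E6.5 and 2 at E9.5, and at E8.5 there were 30, all higher in KO, with WT heads of the Tet1/2 table in place of the merged WT column. Other settings left the counts within 1.5 times.

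Among members of at least 10 FPKM, the large minus the small subunit median was −0.36 for DKO against WT epiblasts (−0.27 over all members), −0.04 for DKO heads against DKO epiblasts (−0.16) and 0.40 for the interaction (0.15). With a split at the median, pseudogene-rich minus pseudogene-poor was −0.28 for DKO against WT epiblasts (−0.46 in the grouping of the report), −0.50 for WT heads against WT epiblasts (−0.57), 0.46 for the interaction (0.52), −0.04 for Kmt2b KO against WT at E6.5 (−0.11) and 0.47 at E8.5 (0.60). Counting only pseudogenes with a row of their own gave −0.41 for DKO against WT heads (0.00), −0.59 for DKO against WT epiblasts, −0.03 for WT heads against WT epiblasts, 0.05 for DKO heads against DKO epiblasts (−0.11), 0.07 for the interaction, −0.27 for Kmt2b KO against WT heads at E8.5 and −0.28 for WT heads at E9.5 against E8.5 (0.23). Short minus long span, split at the median, gave −0.30 for DKO against WT epiblasts (−0.46), −0.32 for WT heads against WT epiblasts (−0.52), 0.00 for DKO heads against DKO epiblasts (0.12), 0.34 for the interaction (0.59), −0.02 for Kmt2b KO against WT at E6.5 (0.13) and −0.03 at E8.5 (−0.11). The cause was not tested. Of named genes, 0 turned their direction under these settings.

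With 2 or 3 libraries a group, merged Kmt2b columns and unknown depth, small differences are not resolved, and reads shared with pseudogenes limit every level.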
